A study of Homo sapiens with 16 samples.

Results

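The genes described here encode the subunits of oxidative phosphorylation, the set of protein complexes in the inner mitochondrial membrane that pass electrons from NADH and succinate to oxygen and make ATP. Members were taken by gene symbol: the NDUFA, NDUFB, NDUFC, NDUFS and NDUFV families of complex I, SDHA to SDHD of complex II, the UQCR genes and CYC1 of complex III, CYCS, the COX4 to COX8 families of complex IV and the ATP5 genes of complex V. Of 20626 genes counted in U343, 89 were members, and of 20314 counted in U251, 82 were. The 7 members found in the U343 tables and not matched in the U251 tables were ATP5G3, ATP5J2, ATP5L, ATP5S, NDUFA2, NDUFA11 and NDUFC1. By role, the 89 members held 7 core and 28 accessory subunits of complex I, 4 subunits of complex II, 9 of complex III, cytochrome c, 17 of complex IV, 5 of the F1 part of complex V and 10 of its Fo part and stalk. The remaining 8 have a matching symbol and are in no subunit list.

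Complex I takes electrons from NADH and complex II takes them from succinate, and both hand them to ubiquinone. Complex III moves them from ubiquinone to cytochrome c, complex IV moves them from cytochrome c to oxygen, and complex V uses the proton gradient that complexes I, III and IV build to make ATP. The genes counted here are the nuclear ones, whose proteins are imported into the mitochondrion and joined there to the few subunits that mitochondrial DNA encodes. A microRNA acts mainly by pairing of its seed with sites in the 3′ untranslated region of a messenger RNA, which lowers translation and stability of that messenger. Poly(A)-binding protein (PABP) coats the poly(A) tail of messengers, and its immunoprecipitation collects RNA that carries such tails and bound protein.

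U251 and U343 are established human glioblastoma cell lines. Each was reverse transfected with a miR-137 mimic or with a control mimic at 25 nM, and cells were taken 48 h later. From each line and mimic, total RNA was depleted of ribosomal RNA and sequenced (RNASeq), and RNA bound to PABP, precipitated with a mix of anti-PABP antibodies, was sequenced as well (RIPSeq). This gives 8 groups of 2 libraries, 16 in all. Libraries of U251 were made from random-hexamer cDNA and those of U343 from cDNA of the TotalScript kit, both with a Nextera kit. Line and cDNA preparation therefore cannot be told apart. The labels do not say whether the 2 libraries of a group came from separate cultures, so p-values measure the spread between these libraries, which may be technical. All groups are transfected cells of 1 line each, and no untransfected cells were compared.

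The sequence of the mature miRNA, from RefSeq (GRCh38.p14, chr1:98046091-98046113, minus strand), is shown because its seed, bases 2 to 8 in capitals, is the part that pairs with targets.
hsa-miR-137-3p: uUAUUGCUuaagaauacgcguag
Sites for this seed in the members' transcripts were not searched here.

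Promoters of the members were read from RefSeq to show a feature that the choice of members did not use. Of the members, 69 matched a promoter sequence of 250 bases before to 50 bases after the start of the gene (GRCh38.p14). On both strands, a palindromic form of the site of NRF1, a nuclear regulator of respiratory genes, spelled by the capitals of the SDHD stretch below, was in 3 of the 69 (4.35%) and in 1.36% of all 27305 promoters. CCGGAAGTG, a form of the ETS site that GABPA binds, was in 3 (4.35%) against 2.50% of all promoters. AAGATGGCG, a form of the YY1 site, was in 8 (11.6%) against 1.85%. No member promoter held more than 1 of the 3 motifs, so 14 of 69 (20.3%) held any, against 5.44% of all promoters. Stretches of 30 bases around 4 matches that lie before the start site are printed below, with the motif in capitals, because SDHD, UQCRH and NDUFS1 are among the members that were lower in several experiments and ATP5J overlaps the GABPA gene. They lie at chr11:112086753-112086782 (SDHD, plus strand), chr1:46303640-46303669 (UQCRH, plus strand), chr2:206159584-206159613 (NDUFS1, minus strand) and chr21:25735092-25735121 (ATP5J, minus strand) of GRCh38.p14.
SDHD: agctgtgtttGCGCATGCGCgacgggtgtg
UQCRH: gagtgtgccgCACTTCCGGccagatcgccg
NDUFS1: aggctggggcCACTTCCGGcggaactgcgg
ATP5J: aggcgaagaaAAGATGGCGgaggctgtgcc
In UQCRH and NDUFS1 the ETS motif stands as its reverse complement. These matches describe letters and show no binding.

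Libraries held between 10156675 and 18224061 counted reads in U251 RNASeq, 22359794 and 30731476 in U251 RIPSeq, 37952273 and 45134766 in U343 RNASeq, and 37736206 and 45055184 in U343 RIPSeq. Levels are given as reads per 1e6 counted reads (CPM), with totals scaled by edgeR's TMM factors, and they are not adjusted for transcript length, so they compare libraries and not genes. Summed RNASeq levels of 6 glioma and neural stem markers lay between 6054 and 12739 CPM in U251 and 7370 and 10394 CPM in U343, and 6 astroglial markers summed to 55.3 to 91.8 CPM in U251 and 3567 to 4791 CPM in U343. Markers of neurons (at most 63.4 CPM), endothelium (at most 39.3 CPM), blood and microglia (at most 89.4 CPM) and epithelium (at most 190.3 CPM) were low in sum, and none of the markers was at 0 throughout.

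Libraries of 2 groups stood apart. In U343 RNASeq, 12 interferon-induced genes summed to 198 and 207 CPM in the control libraries, to 149 CPM in miR-137 library 1 and to 12971 CPM in library 2. In the other experiments both miR-137 libraries were high, at 11951 and 11552 CPM in U251 RNASeq, 10952 and 11042 CPM in U251 RIPSeq and 12936 and 12910 CPM in U343 RIPSeq, against 143 to 198 CPM in their controls. Library 1 of U343 RNASeq therefore went against the other miR-137 libraries for these genes. In U251 RIPSeq the controls were apart: the median absolute log2 difference between them was 0.60 over all genes tested and 0.63 over the members, against 0.07 between the miR-137 libraries over all genes.

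Members together took a smaller share of the counted reads in miR-137 cells than in control cells in U343. In U343 RNASeq they took 1.54% and 1.65% in the controls and 1.20% and 1.09% with miR-137, or 1.59% ± 0.0806 against 1.15% ± 0.0776 (SD, n = 2 each). In U343 RIPSeq they took 1.69% and 1.67% against 0.949% and 0.907%, or 1.68% ± 0.0127 against 0.928% ± 0.0301. In U251 RNASeq the shares were 0.791% and 0.936% in the controls and 0.638% and 0.767% with miR-137, and in U251 RIPSeq 1.13% and 0.904% against 0.893% and 0.899%. The groups did not overlap in these 4 experiments, but in U251 the gap was small beside the spread between controls. With 2 libraries a group no exact permutation test can reach p = 0.05, so these shares are given without a test. In bulk RNA, fewer cells and less RNA per cell cannot be told apart.

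**Figure D1:**
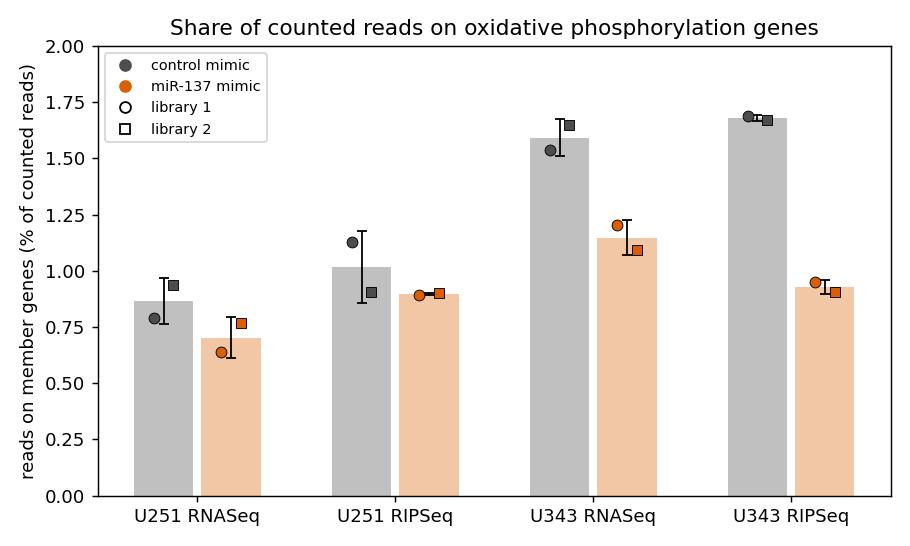
Share of counted reads on oxidative phosphorylation genes (percent, linear axis from 0) in each of the 16 libraries (points), with the mean of each group of 2 as a column and its SD as a bar. In U343 RIPSeq the controls are at 1.69% and 1.67% and the miR-137 libraries at 0.949% and 0.907%, and in U251 RIPSeq control 2, at 0.904%, lies beside the miR-137 libraries at 0.893% and 0.899%.

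Gene by gene, more members passed the test as lower with miR-137 than as higher in total RNA of both lines and in the PABP-bound RNA of U343. In U251 RNASeq 72 members had enough reads to be tested, and by edgeR's quasi-likelihood test at a Benjamini-Hochberg adjusted p under 0.05 over all genes, 36 were lower (29.0% of all genes tested were lower) and 1 was higher (28.7% of all genes). In U343 RNASeq 26 of 83 were lower (11.7% of all genes) and 0 were higher (8.31% of all genes). In U343 RIPSeq 72 of 83 were lower (27.8% of all genes) and 0 were higher (28.5% of all genes). DESeq2 also called 0 members higher in U343 RNASeq and RIPSeq, where it called 1958 of 14795 and 3667 of 14866 genes higher. By edgeR, 45 and 73 members there had an unadjusted p under 0.05 in either direction.

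The median log2 fold change of the members tested was -0.36 in U251 RNASeq, -0.37 in U343 RNASeq and -0.80 in U343 RIPSeq, while that of all genes tested was 0.02, 0.02 and 0.00. Values below 0 were found for 62 of 72, 70 of 83 and 80 of 83 members. The U251 RNASeq count depends on scaling: with upper-quartile factors 3001 genes were lower and 4588 higher instead of 3780 and 3749, the median of all genes moved to 0.16, and 27 members were lower and 5 higher, with a member median of -0.22. In U343 RNASeq the count rests on the controls and on single libraries. It rose when either miR-137 library was left out, and so did the number of all genes that passed. Without control 1 or control 2 no member passed, in fits where no gene of the table passed. The member median in those 4 fits stayed between -0.42 and -0.30, and in each of them an arm of 1 library was assumed to vary like the others.

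In U251 RIPSeq no member passed in either direction by edgeR (0.263% of all genes were lower and 0.944% higher), 8 had an unadjusted p under 0.05, and DESeq2 called 0 lower and 1 higher, where it called 534 genes lower and 589 higher. The median of the 73 members tested was -0.20, with 52 below 0, and that of all genes was -0.02. Leaving out either control changed this. The member median was -0.06 without control 1 and -0.38 without control 2, beside 0.04 and -0.004 over all genes. In both fits members passed in both directions, and the number of all genes that passed rose steeply as well. Where the gene paragraphs below give U251 RIPSeq values, they are therefore given per library, and several genes are described without them.

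Both miR-137 libraries lay under both controls for 46 of 72 members in U251 RNASeq (39.2% of all genes), 24 of 73 in U251 RIPSeq (25.8%), 59 of 83 in U343 RNASeq (32.9%) and 77 of 83 in U343 RIPSeq (38.8%). The reverse, both over both controls, held for 4 (40.3% of all genes), 8 (29.0%), 3 (32.8%) and 2 (39.7%). Taken alone, U343 RNASeq miR-137 library 1, which lacked the rise of the interferon-induced genes, was under both controls for 62 of 83 members (43.8% of all genes), and library 2 for 67 (43.6%). The 26 members lower in U343 RNASeq had log2 fold changes of -1.15 to -0.44 without library 1 and -1.25 to -0.36 without library 2. By role, the medians without library 1 and without library 2 were -0.46 and -0.28 for complex I core subunits and -0.27 and -0.20 for accessory subunits. They were -0.43 and -0.49 in complex II, -0.63 and -0.54 in complex III and -0.53 and -0.39 in complex IV. F1 had -0.44 and -0.42, and Fo and stalk -0.55 and -0.39. CYCS had -0.75 and -0.86.

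**Figure D2:**
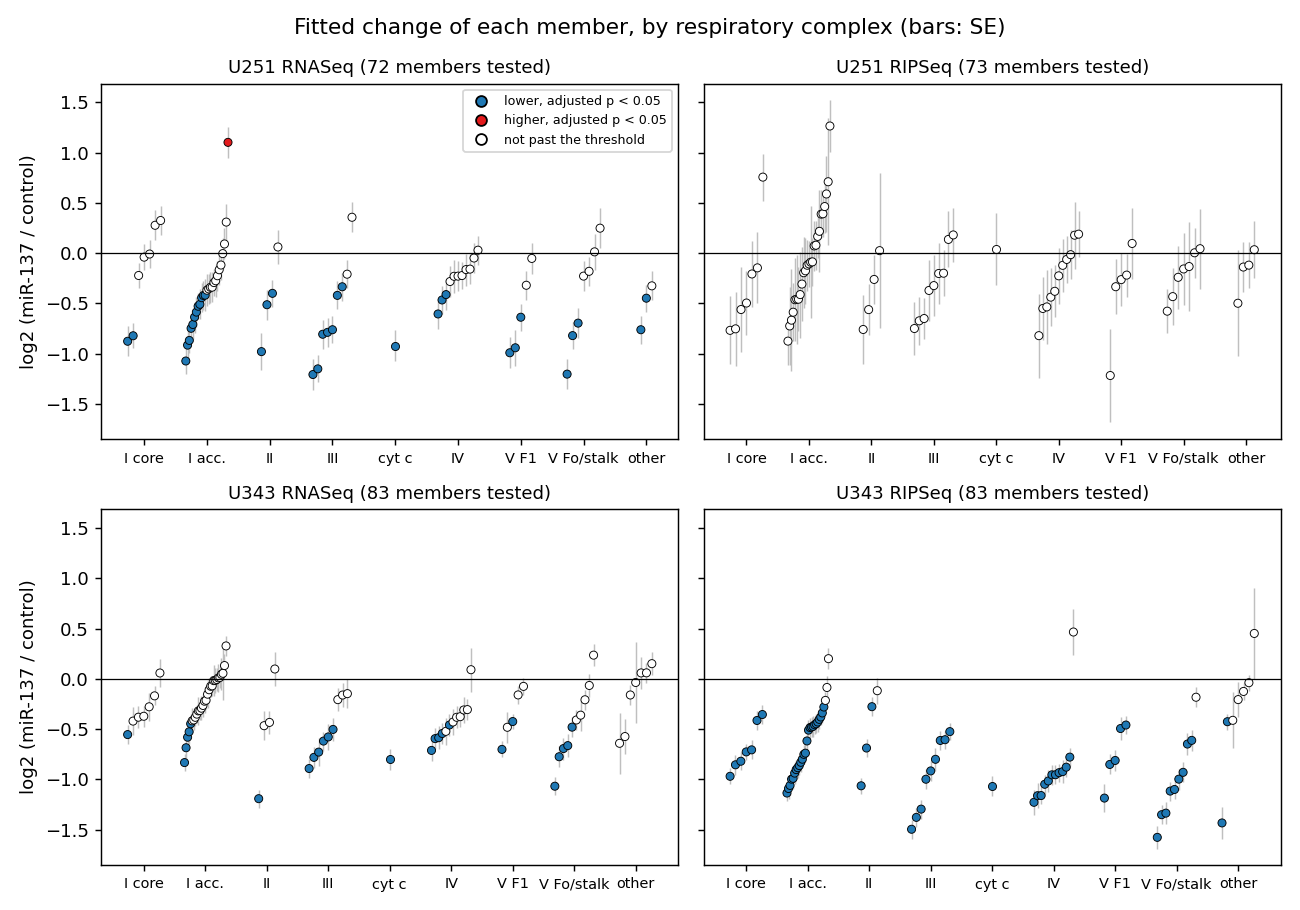
Log2 fold change of each member tested (points, miR-137 against control, edgeR) by role and experiment, with SE as bars, coloured points for members past the threshold and white points for the others. In U343 RIPSeq 72 of 83 points lie past the threshold below 0, and in U251 RIPSeq 0 of 73 do.

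Among core subunits of complex I, those that carry the iron-sulfur clusters and the NADH site, 2 of 7 were lower in U251 RNASeq (median -0.04), 1 of 7 in U343 RNASeq (-0.37) and 7 of 7 in U343 RIPSeq (-0.73). The RNASeq shares, 28.6% and 14.3%, lay near those of all genes tested, 29.0% and 11.7%. In U343 RIPSeq 27.8% of all genes were lower. NDUFS1, the large iron-sulfur subunit (hg18 chr2:206696048-206732432), was at 146 and 142 CPM in U251 RNASeq controls and 78.1 and 85.2 CPM with miR-137 (log2 -0.82 ± 0.13 SE, adjusted p = 9.37e-05). In U343 RNASeq it was at 144 and 151 CPM against 103 and 98.3 CPM (-0.56 ± 0.09, adjusted p = 0.0246), and in U343 RIPSeq at 159 and 153 CPM against 81.3 and 77.8 CPM (-0.97 ± 0.08, adjusted p = 5.41e-05). NDUFS1 thus did not overlap between groups in these 3 experiments, whereas in U251 RIPSeq it was at 59.7 and 106 CPM in the controls and 74.0 and 76.0 CPM with miR-137. NDUFV2, another electron-carrying subunit, had 57.5 and 64.0 CPM in U251 RIPSeq controls and 102 and 103 CPM with miR-137 (0.76 ± 0.23, adjusted p = 0.19). In U343 RIPSeq it was at 194 and 184 CPM against 149 and 135 CPM (-0.41 ± 0.09, adjusted p = 0.00618), so it stood on opposite sides in the PABP-bound RNA of the lines.

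Accessory subunits of complex I, which surround the core and are needed for assembly, were lower for 12 of 25 in U251 RNASeq (median -0.37), 5 of 28 in U343 RNASeq (-0.22) and 25 of 28 in U343 RIPSeq (-0.57). These are 48%, 17.9% and 89.3%, beside 29.0%, 11.7% and 27.8% of all genes tested. NDUFB5, a membrane-arm subunit (hg18 chr3:180805269-180824982), was at 145 and 168 CPM in U251 RNASeq controls and 69.8 and 78.8 CPM with miR-137 (log2 -1.07 ± 0.13, adjusted p = 1.69e-05). It was at 121 and 125 CPM against 69.7 and 68.3 CPM in U343 RNASeq (-0.83 ± 0.09, adjusted p = 0.0101) and at 114 and 101 CPM against 53.6 and 49.8 CPM in U343 RIPSeq (-1.06 ± 0.09, adjusted p = 6.55e-05). In U251 RIPSeq its miR-137 libraries, at 134 and 129 CPM, lay between the controls at 69.3 and 211 CPM.

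NDUFA6, an accessory subunit that binds the mitochondrial acyl carrier protein (hg18 chr22:40811476-40816834), was the 1 member that passed as higher in U251 RNASeq, and it passed as lower in both U343 experiments. In U251 RNASeq it was at 33 and 42.8 CPM in the controls and 74.4 and 88.3 CPM with miR-137 (log2 1.10 ± 0.15, adjusted p = 4.41e-05), and in U251 RIPSeq at 37.5 and 29.6 CPM against 78.8 and 82.4 CPM (1.26 ± 0.26, adjusted p = 0.11). In U343 RNASeq it was at 89.4 and 98.5 CPM against 63.6 and 53.1 CPM (-0.69 ± 0.13, adjusted p = 0.0313), and in U343 RIPSeq at 142 and 139 CPM against 65.4 and 62.4 CPM (-1.14 ± 0.08, adjusted p = 2.44e-05). Groups did not overlap in any of the 4 experiments. The difference between lines was tested as an interaction and passed in RNASeq (-1.79 ± 0.23, adjusted p = 0.00206) and in RIPSeq (-2.34 ± 0.26, adjusted p = 0.011).

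NDUFA9, another accessory subunit, is named after its values were seen, as 1 of the 2 members, with COX4NB, that were lower in U251 RNASeq and not called in U343 RIPSeq. In U251 RNASeq it was at 123 and 148 CPM in the controls and 65.7 and 77.8 CPM with miR-137 (log2 -0.92 ± 0.14, adjusted p = 0.000108). In U343 RNASeq its controls were at 130.2 and 133 CPM and its miR-137 libraries at 103 and 171 CPM. Library 1, without the rise of the interferon-induced genes, was thus below the controls and library 2 above them. Its log2 fold change there was 0.05 with both libraries (adjusted p = 0.902), 0.37 without library 1 and -0.36 without library 2. In U343 RIPSeq it was at 159 and 154 CPM against 195 and 165 CPM (0.20 ± 0.10, adjusted p = 0.138). Of the 11 members tested in U343 RIPSeq that were not called, 2 more were accessory subunits of complex I, NDUFA5 (-0.09) and NDUFC2 (-0.22).

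In complex II, which is also the succinate dehydrogenase of the citric acid cycle, 3 of 4 subunits were lower in U251 RNASeq (median -0.46), 1 of 4 in U343 RNASeq (-0.45) and 3 of 4 in U343 RIPSeq (-0.48). Over all genes tested, the lower shares were 29.0%, 11.7% and 27.8%. SDHD, a membrane anchor (hg18 chr11:111462781-111471727), had the largest fall of all members past the threshold in U343 RNASeq, from 106 and 105 CPM to 44.4 and 47.9 CPM (log2 -1.19 ± 0.09, adjusted p = 0.00711). It was at 36.1 and 46.7 CPM against 17.2 and 24.7 CPM in U251 RNASeq (-0.98 ± 0.18, adjusted p = 0.000468) and at 99.3 and 101 CPM against 47.0 and 48.9 CPM in U343 RIPSeq (-1.07 ± 0.08, adjusted p = 2.88e-05). The U251 RIPSeq controls, at 9.14 and 47.2 CPM, enclosed its miR-137 libraries at 28.7 and 28.6 CPM. SDHC, the other anchor, was low throughout, at 9.79 to 10.9 CPM in U251 RNASeq and 3.23 to 3.63 CPM in U343 RNASeq, and was called in none of the 4 experiments.

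SDHA, the flavoprotein that oxidises succinate, was at 41.4 and 42.8 CPM in U251 RNASeq controls and 32.4 and 31.3 CPM with miR-137 (log2 -0.40 ± 0.13, adjusted p = 0.019). Levels in U343 RNASeq were 237 and 234 CPM against 150.1 and 191 CPM (-0.47 ± 0.15, adjusted p = 0.0938), and in U343 RIPSeq at 199 and 222 CPM against 176 and 171 CPM (-0.28 ± 0.09, adjusted p = 0.0353). SDHB, the iron-sulfur subunit, was lower in U251 RNASeq (-0.51 ± 0.15, adjusted p = 0.00888) and in U343 RIPSeq (-0.69 ± 0.09, adjusted p = 0.000415), and had -0.43 ± 0.11 in U343 RNASeq (adjusted p = 0.0649). In U343 RNASeq SDHA and SDHB had -0.31 and -0.54 without miR-137 library 1 and -0.65 and -0.34 without library 2. Complex II thus held 1 subunit, SDHD, that passed in U251 RNASeq, U343 RNASeq and U343 RIPSeq.

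Complex III pumps protons while it reduces cytochrome c. Of its 9 members, 7 were lower in U251 RNASeq (median -0.76), 6 in U343 RNASeq (-0.58) and 9 in U343 RIPSeq (-0.92). These are 77.8%, 66.7% and 100%, beside 29.0%, 11.7% and 27.8% of all genes tested. UQCRC1 and UQCRC2 encode the core proteins on the matrix side. UQCRC1 (hg18 chr3:48611436-48622102) was at 473 and 542 CPM in U251 RNASeq controls and 196 and 243 CPM with miR-137 (log2 -1.21 ± 0.15, adjusted p = 1.6e-05), at 614 and 757 CPM against 473 and 445 CPM in U343 RNASeq (-0.58 ± 0.13, adjusted p = 0.0468), and at 702 and 766 CPM against 445 and 397 CPM in U343 RIPSeq (-0.80 ± 0.11, adjusted p = 0.000681). Its U251 RIPSeq values, 484 and 423 CPM against 286 and 291 CPM, did not overlap either, with an adjusted p of 0.19 (-0.65 ± 0.20). Groups of this gene were apart in all 4 experiments.

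UQCRC2 (hg18 chr16:21872110-21902169) was also apart in all 4. It was at 187 and 209 CPM against 82.8 and 95.2 CPM in U251 RNASeq (log2 -1.15 ± 0.13, adjusted p = 9e-06) and at 167 and 232 CPM against 117 and 121 CPM in U251 RIPSeq (-0.75 ± 0.26, adjusted p = 0.225). In U343 it was at 197 and 206 CPM against 112 and 105 CPM in RNASeq (-0.89 ± 0.10, adjusted p = 0.0107) and at 287 and 275 CPM against 112 and 103 CPM in RIPSeq (-1.38 ± 0.09, adjusted p = 1.85e-05). Without U343 RNASeq miR-137 library 1 its value in that experiment was -0.95, and without library 2 it was -0.85.

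UQCRH, the hinge protein that sits by cytochrome c1 (hg18 chr1:46541967-46555034), was at 125 and 161 CPM in U251 RNASeq controls and 76.8 and 86.5 CPM with miR-137 (log2 -0.81 ± 0.15, adjusted p = 0.000358). In U343 it was at 84.9 and 92.0 CPM against 54.2 and 48.7 CPM in RNASeq (-0.78 ± 0.10, adjusted p = 0.0153) and at 71.1 and 69.6 CPM against 26.8 and 23.0 CPM in RIPSeq (-1.498 ± 0.10, adjusted p = 1.66e-05). In U251 RIPSeq the miR-137 libraries, at 98.5 and 88.4 CPM, lay within the range of the controls, 70.9 and 99.2 CPM. UQCRHL, a single-exon copy on chr1:16006244-16006781 (hg18) that is not among the complex III list, was at 6.58 and 5.58 CPM against 2.20 and 2.30 CPM in U343 RIPSeq (-1.43 ± 0.16, adjusted p = 0.000227). Because the copies are near-identical, the counting may have split reads between them, and the value of UQCRHL is uncertain.

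CYC1, cytochrome c1, was lower in U251 RNASeq (log2 -0.79 ± 0.14, adjusted p = 0.000362), U343 RNASeq (-0.73 ± 0.14, adjusted p = 0.0327) and U343 RIPSeq (-0.9997 ± 0.10, adjusted p = 0.000106). Its levels in U343 RNASeq were 378 and 458 CPM in the controls and 268 and 237 CPM with miR-137. UQCRFS1, the Rieske iron-sulfur protein, had values of -0.42, -0.50 and -0.61 in the same order and passed in each. UQCRQ, UQCR10 and UQCR11, small subunits without a redox centre, passed in U343 RIPSeq (-0.92, -0.61 and -0.53) and not in U343 RNASeq (-0.16, -0.15 and -0.21).

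CYCS encodes cytochrome c (hg18 chr7:25124800-25131480), the electron carrier between complexes III and IV that also triggers apoptosis once it leaves mitochondria. It was at 280.4 and 352 CPM in U251 RNASeq controls and 148 and 185 CPM with miR-137 (log2 -0.92 ± 0.16, adjusted p = 0.000211). In U343 it was at 415 and 459 CPM against 241 and 260.2 CPM in RNASeq (-0.80 ± 0.10, adjusted p = 0.0149) and at 502 and 465 CPM against 236 and 226 CPM in RIPSeq (-1.06 ± 0.10, adjusted p = 8.06e-05). In U251 RIPSeq the controls, 133 and 249.97 CPM, enclosed the miR-137 libraries, 198 and 196 CPM. CYCS has 45 pseudogenes by symbol in the RefSeq table (GRCh38.p14), so part of its reads may be shared with copies.

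**Figure D3:**
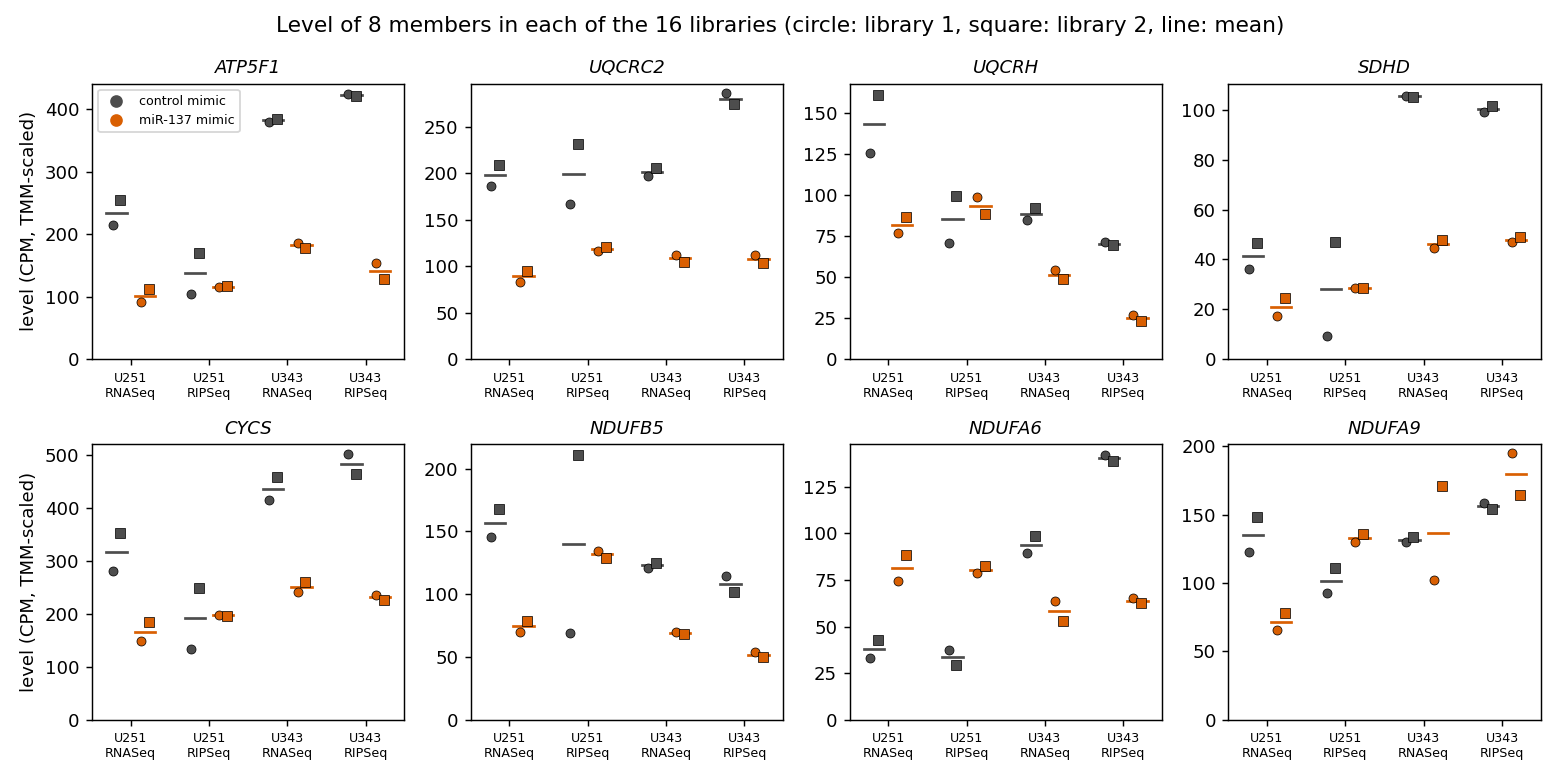
Level (CPM, linear axis from 0) of 8 members in every library, by experiment, with controls and miR-137 libraries as separate points and the group mean as a line. ATP5F1, UQCRC2, UQCRH, SDHD, CYCS and NDUFB5 are lower with miR-137 in U251 RNASeq and in both U343 experiments, NDUFA6 with miR-137 lies above both controls in U251 and below both in U343, and NDUFA9 in U343 RNASeq has 1 miR-137 library (103 CPM) below and 1 (171 CPM) above the controls.

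In complex IV, 3 of 11 members tested were lower in U251 RNASeq (median -0.23), 5 of 12 in U343 RNASeq (-0.45) and 11 of 12 in U343 RIPSeq (-0.96). The U251 RNASeq share, 27.3%, was below the 29.0% of all genes tested. The U343 shares, 41.7% and 91.7%, stood beside 11.7% and 27.8% of all genes. COX4I1, the regulatory subunit of most tissues, was at 472 and 537 CPM in U343 RNASeq controls and 338 and 330.1 CPM with miR-137 (log2 -0.60 ± 0.10, adjusted p = 0.0273), and was lower in U251 RNASeq (-0.47 ± 0.14, adjusted p = 0.0125) and U343 RIPSeq (-1.02 ± 0.11, adjusted p = 0.000151). COX5A was at 85.8 and 79.9 CPM against 38.8 and 35.2 CPM in U343 RIPSeq (-1.16 ± 0.09, adjusted p = 3.45e-05) and had -0.16 ± 0.15 in U251 RNASeq (adjusted p = 0.377). NDUFA4, first assigned to complex I and now counted with complex IV, was at 511 and 489.5 CPM against 249 and 198 CPM in U343 RIPSeq (-1.16 ± 0.13, adjusted p = 0.000187), and at -0.28 ± 0.15 in U251 RNASeq (adjusted p = 0.124).

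COX7B, a small subunit at the edge of the complex, was lower in U251 RNASeq, from 345 and 449.8 CPM to 277 and 320 CPM (log2 -0.41 ± 0.15, adjusted p = 0.0336). In U343 RIPSeq it was at 307 and 260.4 CPM against 131 and 111 CPM (-1.23 ± 0.12, adjusted p = 0.000118), and in U251 RIPSeq at 293 and 383 CPM against 391 and 379.9 CPM (0.19 ± 0.23, adjusted p = 0.7). The U251 RIPSeq groups overlapped and those of U343 did not. COX7C had values of -0.61, -0.54 and -1.05 in U251 RNASeq, U343 RNASeq and U343 RIPSeq and passed in each.

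Several complex IV subunits have a second gene that is used in muscle, lung or testis. In these lines the second genes were close to absent, and the widely used ones carried the reads. COX4I2, COX6A2, COX7A1, COX7B2 and COX8C had at most 8 reads in any library and were left out of the tests in both lines. COX8C had 0 reads in all 8 U343 libraries, which at 3 counts a library allows a level of up to 0.0665 to 0.0795 CPM, a limit that covers counting error only. COX6B2 was tested in U343, at 1.43 and 1.19 CPM in RNASeq controls, while COX6B1 was at 166 and 203 CPM there. COX6A1 was at 882 and 854 CPM in U343 RIPSeq controls and 489.8 and 425 CPM with miR-137 (log2 -0.92 ± 0.12, adjusted p = 0.000377), and COX7A2 at 89.2 and 82.6 CPM against 47.3 and 41.3 CPM (-0.96 ± 0.10, adjusted p = 0.000124). NDUFA4L2, the hypoxia-linked relative of NDUFA4, did not exceed 0.628 CPM in U343 RNASeq.

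The F1 part of complex V holds the catalytic sites. Of its 5 genes, 3 were lower in U251 RNASeq (median -0.64), 2 in U343 RNASeq (-0.43) and 5 in U343 RIPSeq (-0.81). Over all genes tested, 29.0%, 11.7% and 27.8% were lower in the same order. ATP5B, the catalytic beta subunit (hg18 chr12:55318226-55326119), was at 1003 and 1266 CPM in U251 RNASeq controls and 501 and 679 CPM with miR-137 (log2 -0.94 ± 0.18, adjusted p = 0.000492). In U343 it was at 2308 and 2544 CPM against 1477 and 1504 CPM in RNASeq (-0.70 ± 0.08, adjusted p = 0.0116) and at 2763 and 2815 CPM against 1319.8 and 1129 CPM in RIPSeq (-1.19 ± 0.14, adjusted p = 0.000281). ATP5B holds 2 small nucleolar RNA genes within its span. ATP5A1, the alpha subunit that alternates with beta (hg18 chr18:41918108-41938197), was at 358 and 443 CPM against 179 and 224 CPM in U251 RNASeq (-0.99 ± 0.16, adjusted p = 0.000118). Its U343 RNASeq levels, 651 and 651 CPM against 486 and 484 CPM, differed less (-0.43 ± 0.08, adjusted p = 0.0305).

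The Fo part lets protons through the membrane, and the stalk holds F1 in place. Lower were 3 of 7 genes in U251 RNASeq (median -0.23), 5 of 10 in U343 RNASeq (-0.45) and 9 of 10 in U343 RIPSeq (-1.05). These are 42.9%, 50% and 90%, beside 29.0%, 11.7% and 27.8% of all genes tested. ATP5F1, subunit b of the stalk (hg18 chr1:111793266-111806048), had the largest fall of all members past the threshold in U343 RIPSeq, from 424 and 421 CPM to 154 and 129 CPM (log2 -1.58 ± 0.11, adjusted p = 2.53e-05). It was at 214 and 255 CPM against 91.3 and 112 CPM in U251 RNASeq (-1.21 ± 0.15, adjusted p = 1.3e-05). In U343 RNASeq it was at 379.8 and 385 CPM in the controls, at 186 CPM in miR-137 library 1 and at 179 CPM in library 2 (-1.07 ± 0.09, adjusted p = 0.00748). In U251 RIPSeq the controls, 104 and 169.8 CPM, enclosed the miR-137 libraries, 115 and 117 CPM. Its span overlaps that of WDR77 by 88 bases.

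ATP5O, which joins the stalk to F1, was at 269.9 and 258 CPM in U343 RIPSeq controls and 114 and 95.3 CPM with miR-137 (log2 -1.34 ± 0.11, adjusted p = 4.52e-05), and was lower in U251 RNASeq (-0.82) and U343 RNASeq (-0.69). ATP5H, subunit d of the stalk, had values of -0.70, -0.67 and -1.12 in the same order as above and passed in each. ATP5G1, ATP5G2 and ATP5G3 encode the same mature ring subunit c from 3 genes, and they moved apart in U343. ATP5G3 (hg18 chr2:175749232-175754736) was at 384 and 437 CPM against 243 and 237 CPM in U343 RNASeq (-0.78 ± 0.11, adjusted p = 0.0166) and at 250.7 and 254.6 CPM against 105 and 92.5 CPM in RIPSeq (-1.35 ± 0.10, adjusted p = 2.53e-05). ATP5G1 passed in RIPSeq (-1.10 ± 0.10, adjusted p = 6.49e-05) and had -0.36 ± 0.15 in RNASeq (adjusted p = 0.173). ATP5G2 passed in neither, at 141 and 153 CPM against 181 and 164 CPM in RNASeq (0.24 ± 0.11, adjusted p = 0.195) and 185 and 187 CPM against 177 and 151 CPM in RIPSeq (-0.18 ± 0.10, adjusted p = 0.161). In U343 RNASeq ATP5G1 had -0.55 without miR-137 library 1 and -0.20 without library 2, and ATP5G2 had 0.15 and 0.31. The difference between the 3 genes was not tested.

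Summed over a complex, levels in U343 RIPSeq with miR-137 were 0.628 of the control mean for the complex I core, 0.672 for its accessory subunits, 0.675 for complex II, 0.535 for complex III, 0.499 for complex IV, 0.493 for F1 and 0.503 for Fo and stalk. In U343 RNASeq the same ratios were 0.815, 0.882, 0.675, 0.693, 0.719, 0.676 and 0.698. In library 2 alone, without the library that lacked the rise of the interferon-induced genes, they were 0.776, 0.853, 0.698, 0.665, 0.692, 0.681 and 0.676. In U251 RNASeq they were 0.838, 0.726, 0.694, 0.592, 0.807, 0.556 and 0.652. In U251 RIPSeq, where the controls were apart, they were 0.801, 0.92, 0.812, 0.743, 0.855, 0.8 and 0.845. The ratio was highest for the accessory subunits of complex I in U343 RNASeq and for its core subunits in U251 RNASeq. The order of the complexes was not tested, and these sums weigh long and abundant messengers most.

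**Figure D4:**
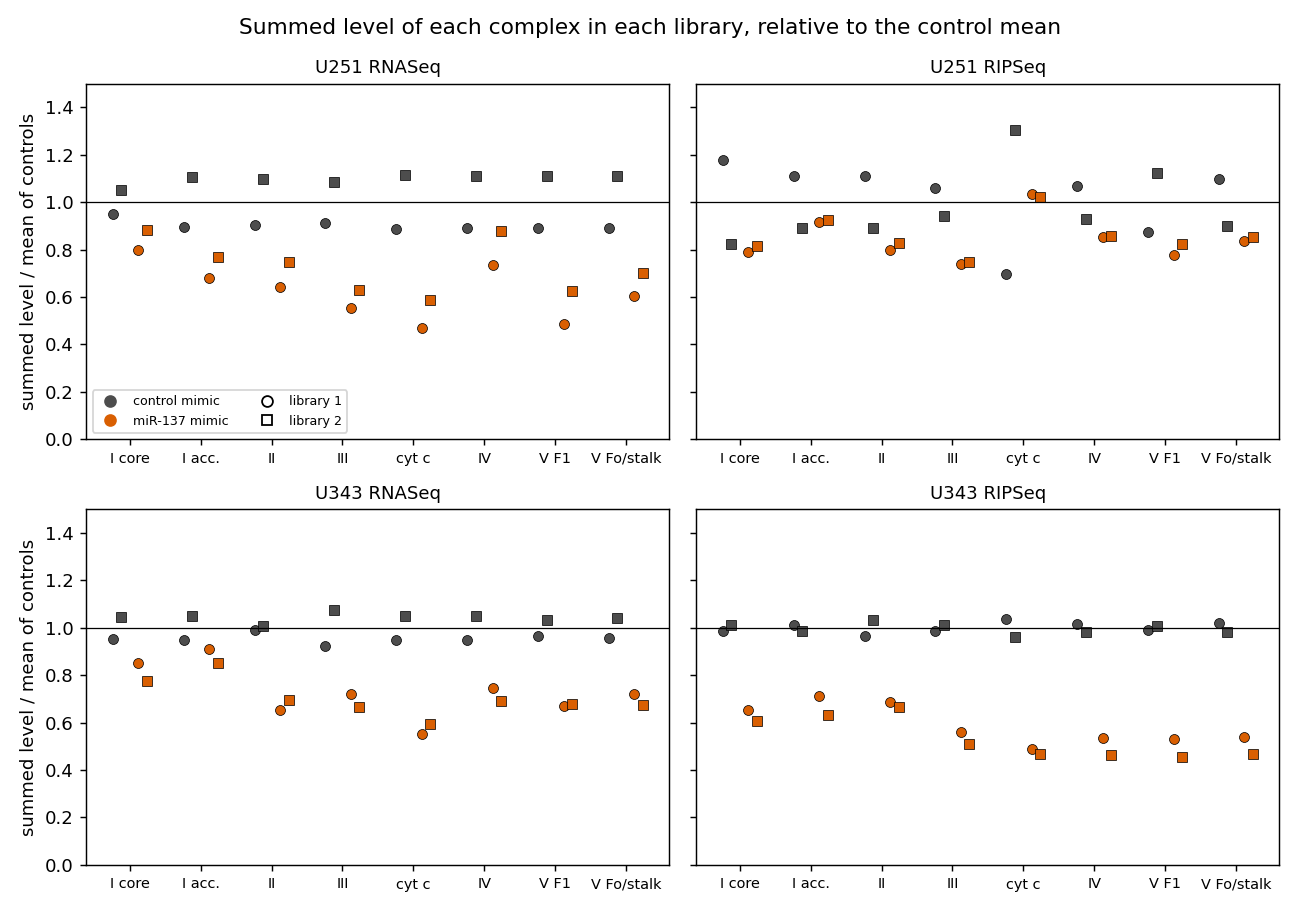
Summed CPM of each complex in every library divided by the mean of the control libraries of the same experiment (ratio, linear axis). In U343 RIPSeq both miR-137 libraries lie below both controls for each complex, with mean ratios between 0.478 for cytochrome c and 0.675 for complex II.

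Of the 8 members in no subunit list, 7 were tested in U343 and 3 in U251 RNASeq, and in U343 RIPSeq 2 of 7 were lower with a median of -0.21, beside 70 of 76 and -0.83 for the subunits and cytochrome c. The share of 2 of 7, 28.6%, was near the 27.8% of all genes tested. COX7A2L, which helps to join complexes III and IV into supercomplexes, was lower in U251 RNASeq, from 121 and 143 CPM to 70.8 and 84.9 CPM (log2 -0.76 ± 0.14, adjusted p = 0.000433). The U343 RNASeq levels were 77.4 and 83.0 CPM against 95.6 and 82.4 CPM (0.15 ± 0.11, adjusted p = 0.4). The interaction between lines was 0.91 ± 0.20 (adjusted p = 0.015). COX4NB, which shares only part of its symbol and encodes a subunit of the membrane protein complex of the endoplasmic reticulum, had -0.13 ± 0.08 in U343 RIPSeq (adjusted p = 0.227).

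By the rule the study used to call targets, every one of the 4 pairs of a miR-137 and a control library had to have an odds ratio over 2 in the same direction by Fisher's exact test with an adjusted p under 0.001. It called no member lower in U251 RNASeq (2.21% of all genes) or U251 RIPSeq (1.49%), 2 in U343 RNASeq, ATP5F1 and SDHD (2.88%), and 14 in U343 RIPSeq (3.40%). The 14 were ATP5B, ATP5F1, ATP5G1, ATP5G3, ATP5H, ATP5O, COX5A, COX7B, NDUFA4, NDUFA6, UQCRB, UQCRC2, UQCRH and UQCRHL. In the other direction it called NDUFA6 in U251 RNASeq (6.14% of all genes) and U251 RIPSeq (3.47%) and no member in U343 RNASeq (1.51%) or U343 RIPSeq (4.83%). With an odds ratio over 1.5 it called 4, 0, 9 and 49 members lower, against 0, 0, 2 and 14. The share of all genes called at 1.5 is not given, so these counts have no background to be read against. The test is on reads of single libraries and compares those libraries.

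All 26 members lower in U343 RNASeq were also lower in U343 RIPSeq, which is 100% of the first list and 36.1% of the second. Of the 36 lower in U251 RNASeq, 18 were lower in U343 RNASeq, or 50.0% of the first and 69.2% of the second, and 34 were lower in U343 RIPSeq, or 94.4% and 47.2%. Beside these overlaps, 50.0% of members tested were lower in U251 RNASeq, 31.3% in U343 RNASeq and 86.7% in U343 RIPSeq. The overlap of such lists over all genes is not given. In all 3 lists stood 18 members: NDUFB5 and NDUFS1 of complex I, SDHD, CYC1, UQCRB, UQCRC1, UQCRC2, UQCRFS1 and UQCRH of complex III, CYCS, COX4I1, COX7B and COX7C of complex IV, and ATP5A1, ATP5B, ATP5F1, ATP5H and ATP5O of complex V.

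In control cells, PABP-bound RNA and total RNA differed for some members. By edgeR 17 of 73 were higher in RIPSeq than in RNASeq in U251 (22.3% of all genes) and 2 were lower (18.2%), with a median log2 ratio of 0.26. In U343 30 of 83 were higher (18.2% of all genes) and 10 lower (15.7%), with a median of 0.15. Leaving out 1 control library gave medians of 0.02 to 0.36 in U251 and 0.09 to 0.20 in U343. The counts of members moved in these fits, and so did the number of all genes that passed. ATP5D, a subunit of the central stalk, was at 22.4 and 26.1 CPM in U251 RNASeq and 198 and 85.6 CPM in RIPSeq (log2 ratio 2.71 ± 0.39, adjusted p = 0.00234), and at 42.4 and 54.4 CPM against 85.4 and 89.3 CPM in U343 (0.98 ± 0.14, adjusted p = 0.00236). NDUFA7 and NDUFA3, accessory subunits of complex I, had ratios of 1.87 and 1.84 in U251 and 0.62 and 0.50 in U343, and passed in both lines.

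SDHC had the highest ratio among members past the threshold in U343, from 3.23 and 3.30 CPM in RNASeq to 6.41 and 6.59 CPM in RIPSeq (log2 ratio 1.12 ± 0.13, adjusted p = 0.00126), followed by ATP5D and by NDUFS8 (0.94). Lowest in U343 were UQCRQ (-0.86), NDUFB2 (-0.68) and COX6C (-0.64), and in U251 NDUFS4 (-0.80) and ATP5A1 (-0.75). Of 73 members tested in both lines, 11 passed in both, and 10 of these were higher in RIPSeq in both. PABP-bound and total RNA were prepared differently, so a ratio can reflect preparation as well as binding, and the parts cannot be told apart.

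**Figure D5:**
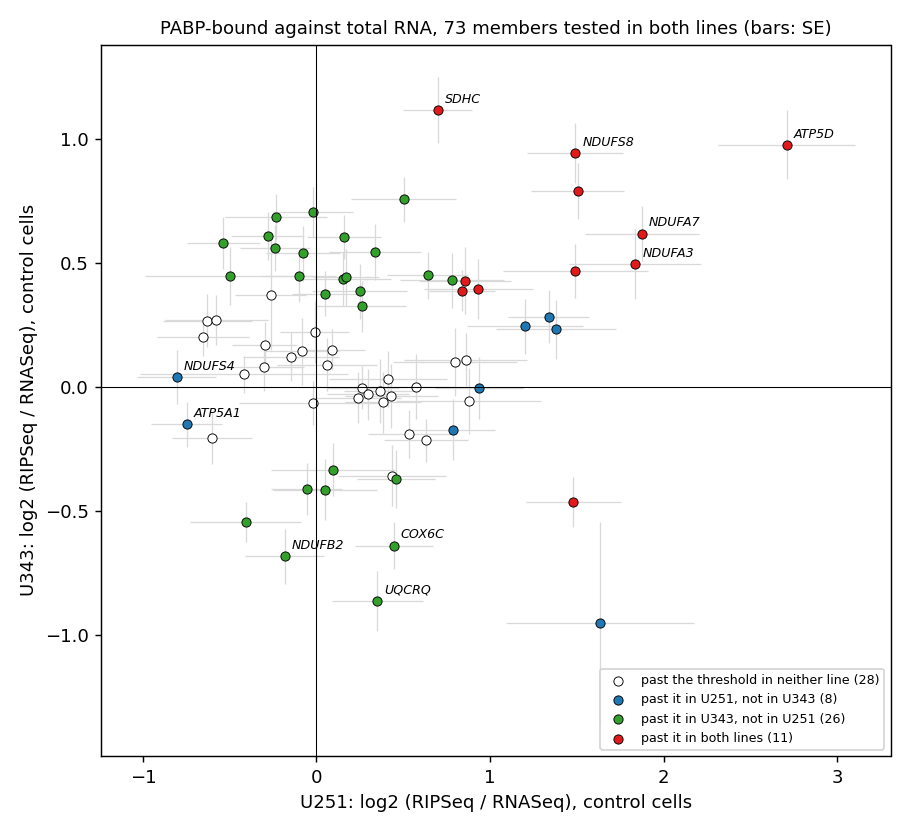
Log2 ratio of PABP RIPSeq to RNASeq in control cells for 73 members tested in both lines, U251 on the horizontal and U343 on the vertical axis, with SE as bars and colours for the lines in which a member passed the threshold. Past it in both lines are 11 members, 10 of them above 0 on both axes, with ATP5D at 2.71 and 0.98.

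Whether PABP-bound RNA changed more than total RNA was tested as an interaction. In U343 the members' values in RIPSeq were lower than in RNASeq for 77 of 83 (median difference -0.43 in log2, against 0.00 over all genes), yet 0 passed in either direction by edgeR (0.00% of all genes lower, 0.00649% higher) and 55 had an unadjusted p under 0.05. DESeq2 called 13 lower, where it called 278 of 10034 genes lower and 122 higher. Without U343 RNASeq miR-137 library 2 the median difference was -0.52, and without library 1 it was -0.37. In the first of these fits the number of members that passed rose, and so did that of all genes. The smallest p was that of UQCRB, a small subunit of complex III (-0.68 ± 0.14, adjusted p = 0.196). In U251 the median was 0.09, 0 of 73 passed (0.0281% and 0.106% of all genes), 10 had an unadjusted p under 0.05, and DESeq2 called 1 higher, where it called 395 genes lower and 309 higher. Without U251 RIPSeq control 2 the U251 median was -0.008, and without control 1 it was 0.41. In both fits the number of members and of all genes that passed rose.

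The response of the lines was compared over 76 members tested together. In RNASeq 1 member had a lower value in U343 than in U251, NDUFA6 (12.7% of all genes), and 2 had a higher one, COX7A2L and NDUFA10 (12.5%), with a median difference of 0.05. NDUFA10, an accessory subunit of complex I, was at 126 and 141 CPM against 73.1 and 72.7 CPM in U251 and 106 and 112 CPM against 86.3 and 84.4 CPM in U343, an interaction of 0.51 ± 0.16 (adjusted p = 0.0451) that lost the call under 7 of 12 alternatives. Leaving out 1 RNASeq library gave medians of -0.10 to 0.23, and the number of members and of all genes that passed moved between these fits. In RIPSeq 5 members had a lower value in U343 (1.22% of all genes) and 0 a higher one (2.06%), with a median of -0.44. These were NDUFA6, UQCRH (-1.58 ± 0.28, adjusted p = 0.0332), UQCRB (-1.43 ± 0.26, adjusted p = 0.0376), COX7B (-1.37 ± 0.26, adjusted p = 0.0391) and NDUFV2 (-1.12 ± 0.21, adjusted p = 0.0398). This count depends on the libraries. The median was -0.66 without U251 RIPSeq control 1 and -0.24 without control 2, and in both fits the number of members and of all genes that passed rose. No member passed when any of the other 6 RIPSeq libraries was left out, in fits where hardly any gene of the table passed.

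Genes that work beside the complexes were read from lists, beside shares over all genes tested of 29.0% lower and 28.7% higher in U251 RNASeq, 11.7% and 8.31% in U343 RNASeq, and 27.8% and 28.5% in U343 RIPSeq. Of assembly factors, 13 of 27 were lower and 3 higher in U251 RNASeq, 4 and 1 of 29 in U343 RNASeq, and 15 and 3 of 29 in U343 RIPSeq. Enzymes of the citric acid cycle were lower for 9 of 13, 4 of 13 and 11 of 13, with 0 higher in each and medians of -0.50, -0.33 and -0.55. Mitochondrial ribosomal proteins, which serve the subunits made inside the mitochondrion, were lower for 28 of 75, 15 of 75 and 42 of 75, and higher for 9, 1 and 8. Cytosolic ribosomal proteins were lower for 71 of 80, 7 of 82 and 61 of 82, and higher for 1, 0 and 1. Proteasome subunits were lower for 7 of 35, 3 of 36 and 15 of 36, and higher for 3, 0 and 4. The lower shares of the proteasome in both RNASeq experiments (20.0% and 8.33%) and of the cytosolic ribosome in U343 RNASeq (8.54%) were under those of all genes. In U251 RIPSeq none of these lists had a member past the threshold.

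ATPIF1, the inhibitor that binds complex V, was at 62.5 and 60.0 CPM in U343 RIPSeq controls and 42.5 and 37.2 CPM with miR-137 (log2 -0.62 ± 0.09, adjusted p = 0.000896). It had 0.15 in U251 RNASeq and 0.01 in U343 RNASeq and was called in neither. PPARGC1A, a coactivator that raises transcription of mitochondrial genes, was lower in U251 RNASeq, from 99.0 and 104 CPM to 69.6 and 63.3 CPM (-0.61 ± 0.13, adjusted p = 0.00105), in U343 RNASeq (-0.73 ± 0.17, adjusted p = 0.0473) and in U343 RIPSeq (-0.50 ± 0.08, adjusted p = 0.00131). TFAM, which packs and transcribes mitochondrial DNA, had 0.01, -0.07 and 0.22 in the same order and was called in none. Both are on a list of 12 regulators of respiratory genes that went in both directions. Of the 12, 5 were lower and 4 higher in U251 RNASeq (29.0% and 28.7% of all genes). In U343 RNASeq 3 were lower and 0 higher (11.7% and 8.31%), and in U343 RIPSeq 5 were lower and 3 higher (27.8% and 28.5%).

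Interferon-induced genes were higher with miR-137 for 12 of 12 in U251 RNASeq (28.7% of all genes) and in U251 RIPSeq (0.944%), where no member passed, and for 11 of 12 in U343 RIPSeq (28.5%). In U343 RNASeq 0 of 12 passed by edgeR (8.31% of all genes were higher) and 6 had an unadjusted p under 0.05. DESeq2 called 8 of them higher, where it called 1958 of 14795 genes higher. RSAD2 was at 0.192 and 0.183 CPM in U251 RNASeq controls and 749.8 and 720.2 CPM with miR-137. In U343 RNASeq it was at 3.46 and 3.91 CPM in the controls, 4.32 CPM in miR-137 library 1 and 1517 CPM in library 2 (adjusted p = 0.123), and OAS1 and OAS2 behaved alike, at 10.9 and 913 CPM and at 3.87 and 749.8 CPM. In that experiment 26 of 83 members were lower with both libraries, beside 11.7% of all genes. The member median was -0.42 without library 1 and -0.31 without library 2, beside 0.004 and -0.005 over all genes. Whether the interferon rise has a part in the members' levels was not tested in any experiment.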

How the data were processed

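Total RNA (RNASeq) and PABP-bound RNA (RIPSeq) of U251 and U343 cells were compared between miR-137 and control mimic, 2 libraries a group, as the labels assign them. The deposited values were whole-number read counts per gene: per their methods, the authors mapped reads with RMAP to hg18 and counted those in merged transcripts of each RefSeq gene. The strand setting of the U251 counts is not given in the sources used here, so overlapping genes may share reads. A repeated line of 1 gene in the U251 tables was dropped. An additional U251 replicate named in the methods was not analysed here.

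Counts were filtered with filterByExpr, scaled by TMM and fitted with edgeR 4.0.16 (R 4.3.3), quasi-likelihood F test, Benjamini-Hochberg adjustment over all genes, threshold 0.05, in 10 comparisons: miR-137 against control in each of 4 experiments, RIPSeq against RNASeq in the controls of each line, and interactions of the response with assay and with line. Standard errors are the absolute log2 fold change divided by the square root of F. The study's rule (two-sided Fisher's exact tests of raw counts against library totals, scipy 1.17.1) was rerun on members and all genes. RIPSeq and RNASeq were scaled together for the assay comparisons, and CPM values within each experiment.

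Alternatives were DESeq2 1.42.0, upper-quartile factors, no filter beyond 1 read, the replicate number as a block, and leaving out each library. For the rule, they were TMM-scaled totals and an odds ratio over 1.5. The edgeR fit was tested on simulated data with 200 well-covered genes changed 4-fold: it recovered 100% of them for U251 RNASeq (12852 genes), 67.5% for U251 RIPSeq (13839), 98% for U343 RNASeq (14926) and 100% for U343 RIPSeq (14712). False calls in the same order were 16 of 216, 11 of 146, 29 of 225 and 16 of 216 genes called. For the interaction with assay it recovered 56% in U251 and 92.5% in U343. For the interaction with line it recovered 87% in RNASeq and 61% in RIPSeq. Changes smaller than 4-fold, such as the member medians, were not simulated.

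Members, lists and tests were chosen with earlier results of these data known. Named members were the 5 largest falls and rises past the threshold with the same direction in all 4 pairs of each experiment, those meeting the study's rule, the 3 highest and lowest RIPSeq to RNASeq ratios past the threshold, up to 5 per interaction, CYCS, CYC1 and SDHA to SDHD, isoform pairs, and ATPIF1, TFAM, PPARGC1A, RSAD2, OAS1 and OAS2 outside the members. Other names serve as examples of a role. Of the members, 12 overlap another gene in the hg18 tables, and 48 of the 88 matched to a current symbol have pseudogenes of their name. Transcript lengths were not used.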

Additional observations from a re-analysis of the deposited data

Results flagged for a closer look

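Tests of the difference between lines in the response to miR-137 (U343 minus U251, log2, edgeR, n = 2 libraries a group) passed for 3 members in RNASeq. NDUFA6 had -1.79 (adjusted p = 0.00206), higher with miR-137 in 4 of 4 pairs of U251 libraries and lower in 4 of 4 of U343, and it passed under each alternative tried. COX7A2L had 0.91 (adjusted p = 0.015) and lost the call without U251 control 2, U343 control 1 or U343 control 2 (adjusted p = 0.0531 to 0.0628). NDUFA10 had 0.51 (adjusted p = 0.0451), with lower levels in both lines, and lost the call under 7 of 12 alternatives: with upper-quartile factors (adjusted p = 0.0672), with the replicate number as a block (0.0572), without U251 control 2 (0.136), without either U251 miR-137 library (0.0722 and 0.0675) and without either U343 control (0.124 and 0.123).

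In RIPSeq the same test passed for NDUFA6 at -2.34, UQCRH at -1.58, UQCRB at -1.43, COX7B at -1.37 and NDUFV2 at -1.12. Each of the 5 lost the call when any RIPSeq library other than the U251 controls was left out, in fits where hardly any gene of the table passed. With the replicate number as a block UQCRH, UQCRB, COX7B and NDUFV2 lost it as well (adjusted p = 0.0746 to 0.0885), as did UQCRB, COX7B and NDUFV2 without a filter (0.0511 to 0.0549) and NDUFV2 with upper-quartile factors (0.0526). The U251 controls in this test differ from each other by a median of 0.63 on the log2 scale over the members. Line and cDNA preparation cannot be told apart in any of these tests.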

How the results depend on the processing

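Counts of members are given as lower and higher past the threshold. When 1 library at a time was left out, they ranged over 24 to 46 and 1 to 5 in U251 RNASeq, 0 to 42 and 0 to 24 in U251 RIPSeq, 0 to 47 and 0 to 2 in U343 RNASeq, and 66 to 72 and 0 to 1 in U343 RIPSeq. For RIPSeq against RNASeq they ranged over 0 to 19 and 1 to 38 in U251, and 4 to 14 and 11 to 31 in U343. For the interaction with assay the ranges were 0 to 16 and 0 to 25 in U251, and 0 to 40 and 0 to 1 in U343. For the interaction with line they were 1 to 5 and 0 to 7 in RNASeq, and 0 to 59 and 0 to 9 in RIPSeq. The study's rule gave 0 to 2 and 1 to 1 in U251 RNASeq, 0 to 7 and 1 to 4 in U251 RIPSeq, 2 to 2 and 0 to 0 in U343 RNASeq, and 15 to 20 and 0 to 0 in U343 RIPSeq, where fewer pairs have to agree. In these fits an arm of 1 library is assumed to vary like the others. The number of all genes past the edgeR threshold moved in them as well, so the ranges do not describe the members alone. The cause of these shifts was not tested.

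DESeq2 gave 1 higher in U251 RIPSeq, 1 higher in the U251 and 13 lower in the U343 interaction with assay, 7 higher in the RNASeq and 15 lower in the RIPSeq interaction with line. Over all genes, the same calls in the same order numbered 589 of 12994, 309 of 13108, 278 of 10034, 2368 of 14042 and 665 of 14721. Upper-quartile factors gave 5 higher in U251 RNASeq (4588 of 13052 genes). In the RNASeq interaction with line they gave 2 lower and 1 higher (2270 and 1739 of 15550 genes). Without a filter the RIPSeq interaction with line had 2 lower (162 of 20031 genes). An odds ratio over 1.5 gave 4 and 9 lower in U251 and U343 RNASeq, 49 lower in U343 RIPSeq and 2 higher in U251 RIPSeq, and TMM-scaled totals gave 0 higher in U251 RNASeq. Shares over all genes are not given for these settings of the rule. Without the 10 genes with the most reads, the members' share was 0.955% in U251 RIPSeq with miR-137, 1.69% and 1.23% in U343 RNASeq, and 1.81% and 1.01% in U343 RIPSeq (control, then miR-137). The cause of these shifts was not tested, and the other counts stayed within 1.5 times.

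Replicate numbers recur in each group, and the labels tie no number to a culture, batch or day, so the numbers were not taken as pairs. Deviations of same-numbered libraries from their group means correlated at 0.0482 and -0.027 in U251 RNASeq and RIPSeq and at 0.1288 and 0.367 in U343 RNASeq and RIPSeq, and in U251 RNASeq 67 and 65 of 72 members were higher in library 2 than in library 1 of the controls and of miR-137. Whether same-numbered libraries shared a source was not tested. With the replicate block, 43 members were lower and 3 higher in U251 RNASeq, 14 instead of 26 were lower in U343 RNASeq, 73 were lower in U343 RIPSeq, and 1 was lower in the RIPSeq interaction with line. Over all genes, 3929 of 13052 were then lower and 3766 higher in U251 RNASeq. In U343 RNASeq 1456 instead of 1764 of 15088 genes were lower, and in U343 RIPSeq 4787 of 14866. In the RIPSeq interaction with line 54 of 15959 genes were lower.

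In U251 RIPSeq the sign of the log2 fold change turned between the fit without control 1 and that without control 2 for ATP5B (-0.63 and 0.13), ATP5F1 (-0.55 and 0.24), ATP5G1 (0.63 and -0.28), ATP5G2 (0.57 and -0.52), ATP5H (-0.14 and 0.25), COX6C (-0.32 and 0.19), COX7A2L (-0.21 and 0.41), CYCS (-0.35 and 0.65), NDUFA3 (0.24 and -0.77), NDUFA4 (-0.27 and 0.26), NDUFB5 (-0.69 and 1.02) and SDHD (-0.72 and 1.74). Between the same 2 fits it turned for ATPIF1 (-0.47 and 0.37) and NDUFB5 (0.54 and -1.11) against RNASeq and for ATP5G2 (-0.73 and 0.44) and NDUFA3 (-0.64 and 0.45) between lines. OAS2 in U343 RNASeq had 6.81 without miR-137 library 1 and -0.78 without library 2. For named genes over the alternatives, 4231 values kept direction and side of the threshold, 287 came to pass it, 201 no longer passed it and 17 changed sign.

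With 2 libraries a group, small shifts are not resolved, and in U251 RIPSeq the simulated 4-fold changes were recovered for 67.5% of genes.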
